A study of Homo sapiens with 3 samples.

Results

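The transcripts of YAP, its paralogue TAZ, the transcription factor TEAD1 and 7 genes known as their targets or regulators were examined by RNA-Seq in DLD1 control cells and in BEX2-/- DLD1 cells. The 10 genes, YAP1, WWTR1, TEAD1, CCN1, CCN2, ANKRD1, AMOTL2, LATS2, AJUBA and AXL, were chosen by name, with earlier results of these data known. Shares of all genes set beside them are therefore a description and not a test. All 10 were found by Ensembl identifier among the 60504 genes of the table (CCN1 was formerly CYR61, and CCN2 was formerly CTGF). DLD1 is an established colorectal cancer cell line. One library came from DLD1 control cells, which were wild type for BEX2, and 2 libraries, labelled KO1 and KO2, came from BEX2-/- DLD1 cells, in which BEX2 had been disrupted by CRISPR/Cas9 and which had been screened as clones by sequencing. The labels do not say whether KO1 and KO2 are separate clones or samples of 1 line, and they name no further treatment of any sample. A difference between a knockout library and the control can therefore hold the knockout together with anything else that sets edited cells or a single culture apart, and these cannot be told apart. The control had no replicate.

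YAP and TAZ are coactivators that carry the output of the Hippo pathway. Kinases of the pathway, STK3 and STK4 with SAV1 and then LATS1 and LATS2, phosphorylate YAP and TAZ and keep them out of the nucleus. When they are not phosphorylated, as in spread cells at low density or in regenerating gut epithelium, YAP and TAZ bind TEAD factors on DNA and switch on genes such as CCN1, CCN2 and ANKRD1. Several targets, including LATS2 and AMOTL2, restrain YAP in turn, so the pathway holds its own feedback. Transcript levels alone do not show where the YAP protein lies or how it is phosphorylated.

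TEAD factors recognise the sequence GGAATG, read on either strand (CATTCC on the other). The windows of 250 bases before RefSeq transcription starts (build GRCh38.p14) that hold it are shown for 5 of the genes, because YAP has no DNA-binding domain and reaches its targets through TEAD. Of the 10 genes, 8 had at least 1 window in the RefSeq table, 12 windows in all, and 6 genes had the motif in 1 window each. TEAD1 and CCN1 had no window. The motif was present in 11.9% of all 35116 windows of this length. CCN2 (minus strand, chr6:131951373-131951622) held 3 copies, beginning 169, 104 and 95 bases before the start, where 0.0826% of all windows held 3 or more. ANKRD1 (minus strand, chr10:90921088-90921337) held 2 copies, at 220 and 128 bases before the start, where 0.94% of all windows held 2 or more. The annotated 5′ end of ANKRD1 is at 90921276, so part of this window, with the copy at 128 bases, lies inside the annotated gene. YAP1 (plus strand, chr11:102110197-102110446), AMOTL2 (minus strand, chr3:134374448-134374697) and AJUBA (minus strand, chr14:22976843-22977092) held 1 copy each. For AMOTL2 and AJUBA the window belongs to 1 of 2 starts and lies inside the annotated gene. The window of the other start, at the annotated 5′ end of the gene, held none. The motif is in capitals, and each sequence runs 5′ to 3′ on the strand of its gene.
CCN2: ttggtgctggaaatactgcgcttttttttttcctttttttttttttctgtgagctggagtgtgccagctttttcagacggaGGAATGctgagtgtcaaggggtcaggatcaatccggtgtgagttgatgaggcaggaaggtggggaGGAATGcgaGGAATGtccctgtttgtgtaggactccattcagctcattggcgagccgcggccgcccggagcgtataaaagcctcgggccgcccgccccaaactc
ANKRD1: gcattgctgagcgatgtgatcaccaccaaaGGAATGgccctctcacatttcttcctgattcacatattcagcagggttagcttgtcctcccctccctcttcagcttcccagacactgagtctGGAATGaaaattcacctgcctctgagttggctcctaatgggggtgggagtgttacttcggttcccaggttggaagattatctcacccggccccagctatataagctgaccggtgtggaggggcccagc
YAP1: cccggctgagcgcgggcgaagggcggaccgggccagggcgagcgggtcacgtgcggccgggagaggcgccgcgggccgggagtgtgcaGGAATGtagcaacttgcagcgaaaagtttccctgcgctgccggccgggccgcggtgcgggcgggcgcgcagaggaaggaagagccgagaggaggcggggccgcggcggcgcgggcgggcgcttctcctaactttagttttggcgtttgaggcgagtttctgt
AMOTL2: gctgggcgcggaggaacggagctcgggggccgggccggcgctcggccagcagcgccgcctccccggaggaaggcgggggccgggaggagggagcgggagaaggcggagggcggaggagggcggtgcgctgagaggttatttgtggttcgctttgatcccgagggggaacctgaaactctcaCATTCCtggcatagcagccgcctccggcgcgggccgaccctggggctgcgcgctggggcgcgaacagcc
AJUBA: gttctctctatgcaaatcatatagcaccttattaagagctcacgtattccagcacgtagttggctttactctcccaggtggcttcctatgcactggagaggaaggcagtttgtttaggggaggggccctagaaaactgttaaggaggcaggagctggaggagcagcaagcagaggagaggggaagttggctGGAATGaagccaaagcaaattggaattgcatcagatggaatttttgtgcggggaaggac
The windows of AXL held 1 copy, in that of the second of 2 starts, which lies inside the annotated gene. The window of LATS2 and both windows of WWTR1 held none. A match in these letters is a description of the sequence and was not tested as a binding site.

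Values were deposited as FPKM, read counts scaled by exon length and library depth, so levels of genes within a library may be set side by side. Ratios between libraries also depend on the scaling chosen, and other scalings are given below. The steps between low values gave the control a depth of 47458851 reads, KO1 one of 35593989 and KO2 one of 47722374, and with them the whole reads behind each value. Intervals given below are exact 95% intervals of the ratio of reads per depth, and cover counting error only. With 1 library on each side, such a ratio compares the libraries and not the genotypes, and has no replicate check. BEX2 itself (ENSG00000133134) had no read in any of the 3 libraries, and a limit of 3 reads came to 0.0538 FPKM in the control, 0.0717 in KO1 and 0.0535 in KO2. The BEX2 transcript therefore gave no check of the labels. For the protein, the authors report a relatively high BEX2 level in DLD1 against other colorectal cancer lines, and they checked the knockout by western blot. Why no read was seen in the control was not tested. All 8 markers of colorectal epithelium, among them EPCAM and KRT8, were at 1 FPKM or more in the control and in KO1, and 7 of 8 in KO2, the exception being VIL1 (3.61, 13.2 and 0.221 FPKM in control, KO1 and KO2). The summed level of 6 fibroblast markers lay between 0.129 and 0.634 FPKM, that of 4 endothelial markers between 0.0649 and 0.0784, and that of 4 leukocyte markers between 0.76 and 0.919. COL3A1, LUM, CDH5, KDR and PTPRC were listed at 0 in every library. KO1 had both the fewest reads and the highest fibroblast sum (PDGFRB, 0.602 FPKM), and the part of either in the results was not tested.

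The pattern common to the group was an order of the libraries, with KO1 lowest in all 10 genes, as it was for 25.3% of the 28170 genes above 0 in any library. KO2 was the highest library for 8 genes, against 33.1% of those genes, and the control was the highest for CCN2 and ANKRD1. Among the 7 genes of the group that averaged 1 FPKM or more, KO1 was lowest for 7 and KO2 highest for 6, against 26.6% and 31.6% of the 11675 genes at that level. The genes themselves spanned a wide range of levels. In DLD1 control cells the order was YAP1 (14.3 FPKM), AJUBA (11.6), CCN1 (8.75), AMOTL2 (8.18), TEAD1 (6.20), LATS2 (2.55), CCN2 (1.95), WWTR1 (0.629), ANKRD1 (0.522) and AXL (0.155). By counting error alone, CCN1 (8.23 to 9.31) and AMOTL2 (7.85 to 8.52) overlapped, as did WWTR1 (0.553 to 0.711) and ANKRD1 (0.386 to 0.690), and the other neighbours in that order did not. In bulk RNA, fewer cells with a transcript and less of it per cell cannot be told apart.

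**Figure D1:**
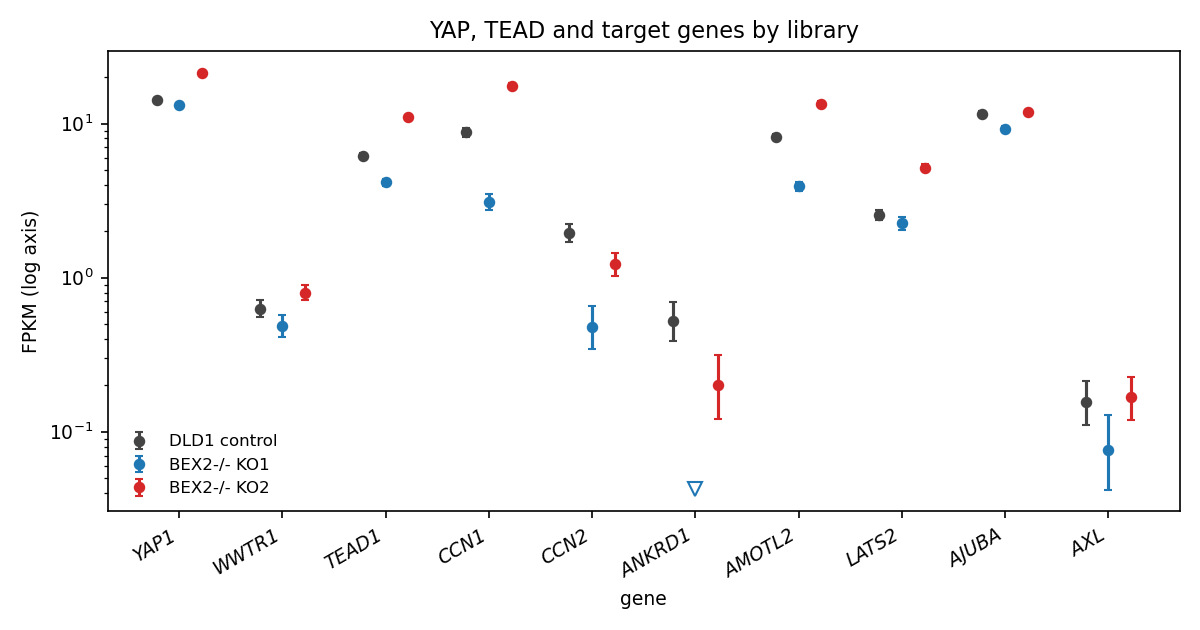
FPKM (log axis) of the 10 genes in DLD1 control cells (grey), KO1 (blue) and KO2 (red), with 1 library per point and bars for the exact 95% counting interval, and an open triangle for ANKRD1 in KO1, listed at 0 and drawn at the level of 3 reads (0.0426 FPKM). The blue point is the lowest of the 3 for every gene, and the red point is the highest except for CCN2 and ANKRD1.

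The coactivator YAP1 (ENSG00000137693, chromosome 11, 102110461 to 102233423 of GRCh38) was at 14.3 FPKM in the control, 13.2 in KO1 and 21.2 in KO2, from 4273, 2947 and 6362 reads. KO2 stood apart, and KO1 was close to the control. The ratio of KO2 to the control was 1.48 (1.42 to 1.54) and that of KO1 was 0.920 (0.877 to 0.964). WWTR1 (ENSG00000018408, chromosome 3, 149517235 to 149736714), which encodes TAZ, was at 0.629 FPKM in the control, 0.488 in KO1 and 0.797 in KO2, from 251, 146 and 320 reads. TAZ transcripts followed the same order as YAP transcripts at a far lower level. WWTR1 made up 4.21% of the summed FPKM of YAP1 and WWTR1 in the control, 3.58% in KO1 and 3.63% in KO2, so YAP1 was the main coactivator transcript in all libraries. The ratio of KO2 to KO1 was 1.61 (1.54 to 1.68) for YAP1 and 1.63 (1.34 to 2.0) for WWTR1.

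TEAD1 (ENSG00000187079, chromosome 11, 12674591 to 12944483), 1 of 4 TEAD genes, was at 6.20 FPKM in the control, 4.15 in KO1 and 11.0 in KO2. These values came from 3056, 1533 and 5441 reads, taking an exon length of 10379 nt, which gave whole reads in all libraries where the annotated 10279 nt did not. The libraries were well separated by counting error. The ratio to the control was 0.669 (0.629 to 0.711) in KO1 and 1.77 (1.69 to 1.85) in KO2, and KO2 was 2.65-fold higher than KO1 (2.5 to 2.80). Its paralogues did not all show the same order. TEAD2 was at 7.04, 3.58 and 10.4 FPKM in control, KO1 and KO2, and was 2.90-fold higher in KO2 than in KO1 (2.59 to 3.26). TEAD3 was at 8.97, 9.06 and 10.4 FPKM, and TEAD4 at 18.8, 14.1 and 14.7 FPKM. For TEAD4 both knockout libraries were below the control, with ratios of 0.749 (0.696 to 0.806) and 0.781 (0.731 to 0.834), and the knockout libraries could not be separated by counting error (KO2 to KO1, 1.04, 0.965 to 1.13). The makeup of the 4 transcripts was least even in the control and KO1. Summed over the 4 genes, TEAD transcripts were at 41.0 FPKM in the control, 30.9 in KO1 and 46.4 in KO2. TEAD4 held the largest share in each library, 45.8%, 45.6% and 31.6%, while TEAD1 held 15.1%, 13.4% and 23.7%. Read per unit length, TEAD4 exceeded TEAD1 by 3.03 times in the control and 3.39 times in KO1, and by 1.34 times in KO2.

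**Figure D2:**
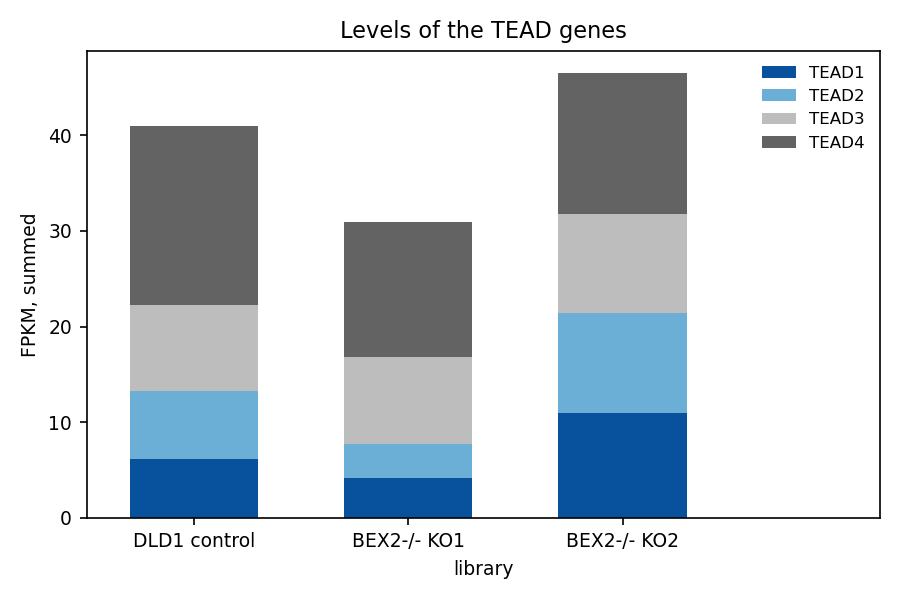
FPKM of TEAD1, TEAD2, TEAD3 and TEAD4, stacked, in each library (1 library per bar, no error bar). The sum runs from 30.9 FPKM in KO1 to 46.4 in KO2, and the TEAD1 and TEAD2 segments are the ones that differ most between the knockout libraries.

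Among the target genes above 1 FPKM in every library, the widest span belonged to CCN1 (ENSG00000142871, chromosome 1, 85580761 to 85583962), a secreted matricellular protein and a standard reporter of YAP activity. It was at 8.75 FPKM in the control, 3.11 in KO1 and 17.5 in KO2, from 1020, 272 and 2055 reads. KO1 lay far below the control and KO2 far above it. The control was 2.81-fold higher than KO1 (2.46 to 3.23), KO2 was 2.0-fold higher than the control (1.86 to 2.16), and KO2 was 5.64-fold higher than KO1 (4.96 to 6.42). CCN2 (ENSG00000118523, chromosome 6, 131948176 to 131951373), its close relative with the 3 motif copies shown above, was at 1.95 FPKM in the control, 0.480 in KO1 and 1.23 in KO2, from 217, 40 and 137 reads. Both knockout libraries were below the control. The control was 4.07-fold higher than KO1 (2.89 to 5.85) and 1.59-fold higher than KO2 (1.28 to 1.99), and KO2 was 2.55-fold higher than KO1 (1.78 to 3.73). ANKRD1 (ENSG00000148677, chromosome 10, 90912096 to 90921276), which encodes a nuclear ankyrin repeat protein, was at 0.522 FPKM in the control and 0.201 in KO2 and was listed at 0 in KO1, from 49, 19 and 0 reads. It took the same order as CCN2, at a lower level. The exact counting interval put the control at 9.59-fold or more above KO1 and KO2 at 3.48-fold or more above KO1. The control was 2.59-fold higher than KO2 (1.5 to 4.66). CCN1 and CCN2 thus stood on opposite sides of the control in KO2.

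AMOTL2 (ENSG00000114019, chromosome 3, 134355874 to 134375479), an angiomotin that binds YAP and holds it at junctions, was at 8.18 FPKM in the control, 3.92 in KO1 and 13.4 in KO2, from 2322, 835 and 3840 reads. The libraries took the same order as for CCN1. The control was 2.09-fold higher than KO1 (1.93 to 2.26), and KO2 was 1.64-fold higher than the control (1.56 to 1.73) and 3.43-fold higher than KO1 (3.18 to 3.70). LATS2 (ENSG00000150457, chromosome 13, 20973032 to 21061547), the kinase that acts directly on YAP and TAZ, was at 2.55 FPKM in the control, 2.25 in KO1 and 5.18 in KO2, from 674, 447 and 1379 reads. Here KO1 was slightly below the control, with a ratio of 0.884 (0.783 to 0.998), and KO2 was 2.03-fold higher than the control (1.85 to 2.23). Its paralogue LATS1 was at 2.35, 2.79 and 2.83 FPKM, and the level of LATS2 relative to LATS1 was 1.09 in the control, 0.806 in KO1 and 1.83 in KO2.

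AJUBA (ENSG00000129474, chromosome 14, 22971174 to 22982642), a LIM protein that binds LATS kinases and limits their action on YAP, was at 11.6 FPKM in the control, 9.21 in KO1 and 11.9 in KO2. It varied little. KO2 and the control differed by less than counting error (ratio 1.03, 0.980 to 1.08), and KO2 was 1.30-fold higher than KO1 (1.23 to 1.37). AXL (ENSG00000167601, chromosome 19, 41219203 to 41261766), a receptor tyrosine kinase known as a YAP target, had the lowest level of the group in the control, with 0.155, 0.0763 and 0.167 FPKM in control, KO1 and KO2 from 38, 14 and 41 reads. At this depth no difference between KO2 and the control was detectable for AXL (ratio 1.07, 0.673 to 1.71), and KO2 was 2.18-fold higher than KO1 (1.17 to 4.34).

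**Figure D3:**
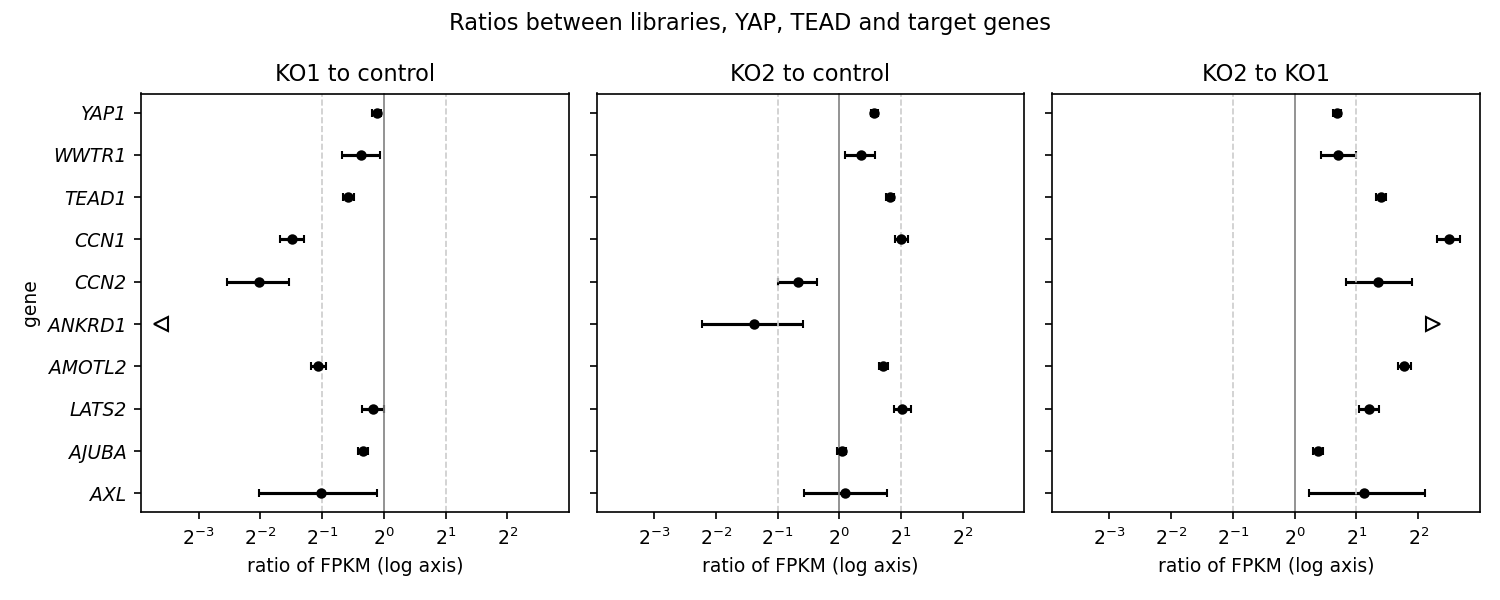
Ratio of FPKM (log axis) for each gene in 3 pairs of libraries, with exact 95% counting intervals as bars and dashed lines at 2-fold, and open triangles for ANKRD1 at the ratio that 3 reads in KO1 would give (the library had 0). All points lie below 1 for KO1 to control and above 1 for KO2 to KO1, and CCN2 and ANKRD1 alone lie clearly below 1 for KO2 to control.

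To set the group beside the rest of the transcriptome, ratios were taken of FPKM + 1, which understates differences of low genes, for the 11675 genes that reached 1 FPKM on average (the mean of the control and of the averaged knockout libraries). Of the 10 genes, 7 reached that level, and WWTR1, ANKRD1 and AXL did not. In KO1, all 7 were lower than in the control, as were 43.8% of all genes tested. CCN1 (log2 ratio -1.25) was the 1 gene of the 7 at least 2-fold lower (background 0.959%), none was at least 2-fold higher (background 1.06%), and CCN2 was just short of that limit (-0.997). In KO2, 6 of the 7 were higher than in the control, as were 48.4% of all genes, while CCN2 was lower, as were 51.6%. None was at least 2-fold higher (background 1.33%) or lower (background 0.737%). Between the knockout libraries, all 7 were higher in KO2, as were 42.2% of all genes tested, with 57.8% lower. CCN1 (2.17), AMOTL2 (1.55) and TEAD1 (1.22) were at least 2-fold higher in KO2, or 3 of 7 against 2.51% of all genes, and none was at least 2-fold lower (background 1.68%). The order KO1 below control below KO2 was seen for 6 of the 7 genes and for 16.1% of all genes tested, and CCN2 was lower in both knockout libraries, as were 27.7%. By counting error, the interval lay below 1 in KO1 for all 7 genes (26.7% of the 10515 genes with whole reads), and above 1 between the knockout libraries for all 7 (27.9%, with 41.8% below 1). For KO2 to control it lay above 1 for 5 of the 7 (33.4%) and below 1 for CCN2 (36.3%). These intervals take depth as the scaling and were not recomputed on another. On the TPM scale, which equalises library totals, the log2 ratio of KO1 to control was -0.06 for YAP1 and -0.10 for LATS2. With depth it was -0.11 and -0.13, and after median-ratio scaling -0.16 for both. The ratio of KO2 to control for AJUBA was 0.11 on the TPM scale, 0.04 with depth and 0.05 after median-ratio scaling. Intervals close to 1 may thus depend on the scaling. The median log2 ratio of the 7 genes was -0.48 for KO1 to control, 0.65 for KO2 to control and 0.93 for KO2 to KO1, beside medians over all genes of 0.037, -0.013 and -0.054. Without a filter the medians over all 10 genes were -0.39, 0.34 and 0.62. Both comparisons with the control share the same control library.

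**Figure D4:**
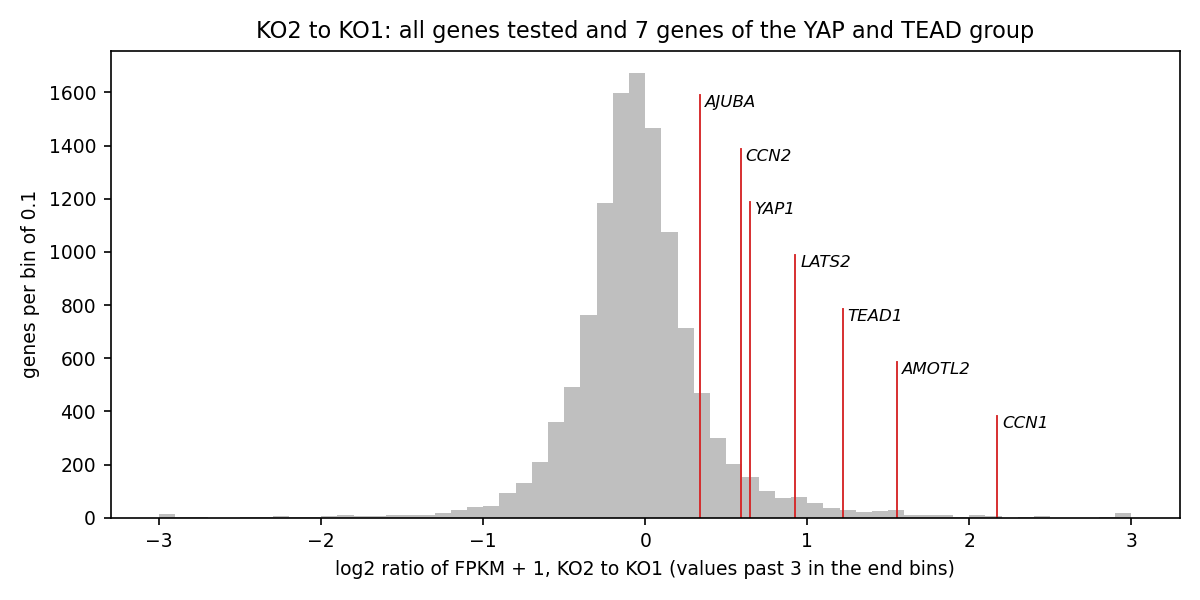
Number of genes per bin of the log2 ratio of FPKM + 1, KO2 to KO1, for the 11675 genes tested (grey), with red lines at the 7 genes of the group above the filter. The grey bars centre near 0 (median -0.054), and the red lines run from AJUBA at 0.34 to CCN1 at 2.17.

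Ratios of FPKM without a pseudocount, with values under 3 reads set to 3 reads, gave more calls, and this scale was added after the values were seen. Between the knockout libraries, 7 of the 10 genes (TEAD1, CCN1, CCN2, ANKRD1, AMOTL2, LATS2 and AXL) were then at least 2-fold higher in KO2, against 7.08% of the 25578 genes with a read and a resolved read count. In KO1, 5 genes (CCN1, CCN2, ANKRD1, AMOTL2 and AXL) were at least 2-fold lower than in the control, against 4.95% of all genes. In KO2, CCN1 and LATS2 were at least 2-fold higher, against 6.8%, and ANKRD1 was at least 2-fold lower, against 7.22%. ANKRD1 was the only gene of the 10 that was at least 2-fold away from the control the same way in both knockout libraries, where 1.93% of all genes were lower in both and 1.78% higher. None of the 10 was at least 2-fold higher in KO1 than in the control (7.28%) or lower in KO2 than in KO1 (8.86%). On this scale, of the 7 genes above the filter, 5 were at least 2-fold higher in KO2 than in KO1 (4.1% of 10515 genes), 3 were lower in KO1 than in the control (2.03%) and 2 were higher in KO2 than in the control (2.56%). None lay past 2-fold the other way in those pairs (3.63%, 2.08% and 1.96%), or past it in both knockout libraries (0.39% lower, 0.38% higher).

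The design compares BEX2-/- cells with control cells, so both knockout libraries were tested together against the control with limma on log2(FPKM + 1). Spread came from the 2 knockout libraries alone, so the lone control was assumed to vary as the knockout libraries do. No gene of the 11675 passed an adjusted p-value of 0.05 (0.0% called), and 139 had an unadjusted p-value under 0.05 (1.19%), none of them among the 7 genes. For CCN1 the knockout libraries averaged 10.3 ± 10.2 FPKM (SD, n = 2), against 8.75 in the control. The log2 difference of the knockout libraries from the control was -0.16 with a standard error of 1.01 for CCN1, 0.12 with 0.59 for TEAD1 and 0.21 with 0.34 for YAP1 (limma, adjusted p = 1.0 for each). The gene with the lowest unadjusted p-value among the 7 was CCN2, at 0.854 ± 0.528 FPKM in the knockout libraries (SD, n = 2) against 1.95 in the control, with a log2 difference of -0.70, a standard error of 0.36 and a limma p-value of 0.133 (adjusted p = 1.0). None of the 7 was at least 2-fold higher in both knockout libraries (background 0.12%) or at least 2-fold lower in both (background 0.206%). For a single gene, an exact two-sided permutation test of 1 library against 2 cannot give a p-value below 0.333.

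The rest of the Hippo pathway was taken from a list of 25 genes, of which 18 passed the filter. No gene of this list passed the limma test. In KO1, none was at least 2-fold higher (background 1.06%) or lower (background 0.959%) than in the control. In KO2, SAV1, the scaffold that joins the kinases STK3 and STK4 to LATS, was the 1 gene of 18 at least 2-fold higher (background 1.33%). It was at 4.05 FPKM in the control, 3.31 in KO1 and 10.3 in KO2. None was at least 2-fold lower in KO2 (background 0.737%). Between the knockout libraries SAV1 (log2 ratio 1.39) and TEAD2 (1.32) were at least 2-fold higher in KO2, or 2 of 18 against 2.51% of all genes, and none was at least 2-fold lower (background 1.68%). By any amount, 6 of the 18 were lower in KO2 than in KO1 (57.8% of all genes), namely MOB1A, MOB1B, TAOK1, TAOK2, TAOK3 and LIMD1. The interval lay below 1 for all of these but TAOK1, or 5 of the 16 genes with whole reads (background 41.8%). It lay above 1 for 8 of the 16 (background 27.9%). The median log2 ratio of the 18 genes was 0.13 for KO1 to control, 0.21 for KO2 to control and 0.13 for KO2 to KO1. Of the 18 genes, 14 were higher than the control by any amount in KO1 and 16 in KO2, against 56.2% and 48.4% of all genes. PTPN14, SAV1 and TEAD2 were the genes with the order seen in CCN1, or 3 of 18 against 16.1% of all genes. The VGLL cofactors, which bind TEAD in place of YAP, were transcribed at low to moderate levels. VGLL4 was at 2.13 FPKM in the control, 2.58 in KO1 and 3.65 in KO2, VGLL3 was at 0.133, 0.223 and 0.239, and VGLL1 had 12, 1 and 0 reads.

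A list of 15 further genes reported as YAP and TEAD targets gave 11 past the filter, and none passed the limma test. Between the knockout libraries CRIM1, FJX1 and TGFB2 were at least 2-fold higher in KO2, or 3 of 11 against 2.51% of all genes, and none was at least 2-fold lower (background 1.68%). CRIM1, which encodes a membrane protein that binds bone morphogenetic proteins, was at 8.62 FPKM in the control, 4.88 in KO1 and 23.7 in KO2, a 4.85-fold difference between the knockout libraries (4.57 to 5.16). FJX1, a secreted relative of the fly kinase four-jointed, was at 5.49, 2.94 and 12.4 FPKM, and was 4.24-fold higher in KO2 than in KO1 (3.71 to 4.86). TGFB2, a ligand of the TGF-beta family, was at 2.48, 1.28 and 5.39 FPKM, and was 4.21-fold higher in KO2 than in KO1 (3.66 to 4.86). CRIM1 and FJX1 were also at least 2-fold higher in KO2 than in the control (2 of 11, background 1.33%), and no gene of the list was so in KO1 (background 1.06%). The order seen in CCN1 held for 5 of the 11 genes, namely F3, CRIM1, FJX1, GADD45A and TGFB2, against 16.1% of all genes. By counting error, F3 in KO2 (ratio 1.04, 0.968 to 1.12) and GADD45A in KO1 (0.942, 0.874 to 1.02) were not separated from the control. The list was not uniform. MYOF, a membrane repair protein, was at 30.2 FPKM in the control, 47.7 in KO1 and 27.8 in KO2, and NUAK2, a kinase related to AMPK, at 8.33, 10.4 and 6.70. With ASAP1 (1.49, 1.89 and 1.71 FPKM) they were the 3 genes of the list that were higher in KO1 than in KO2, and were singled out once their values were known. The interval of that difference included 1 for ASAP1. The median log2 ratio of the 11 genes was -0.05 for KO1 to control, 0.20 for KO2 to control and 0.30 for KO2 to KO1.

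**Figure D5:**
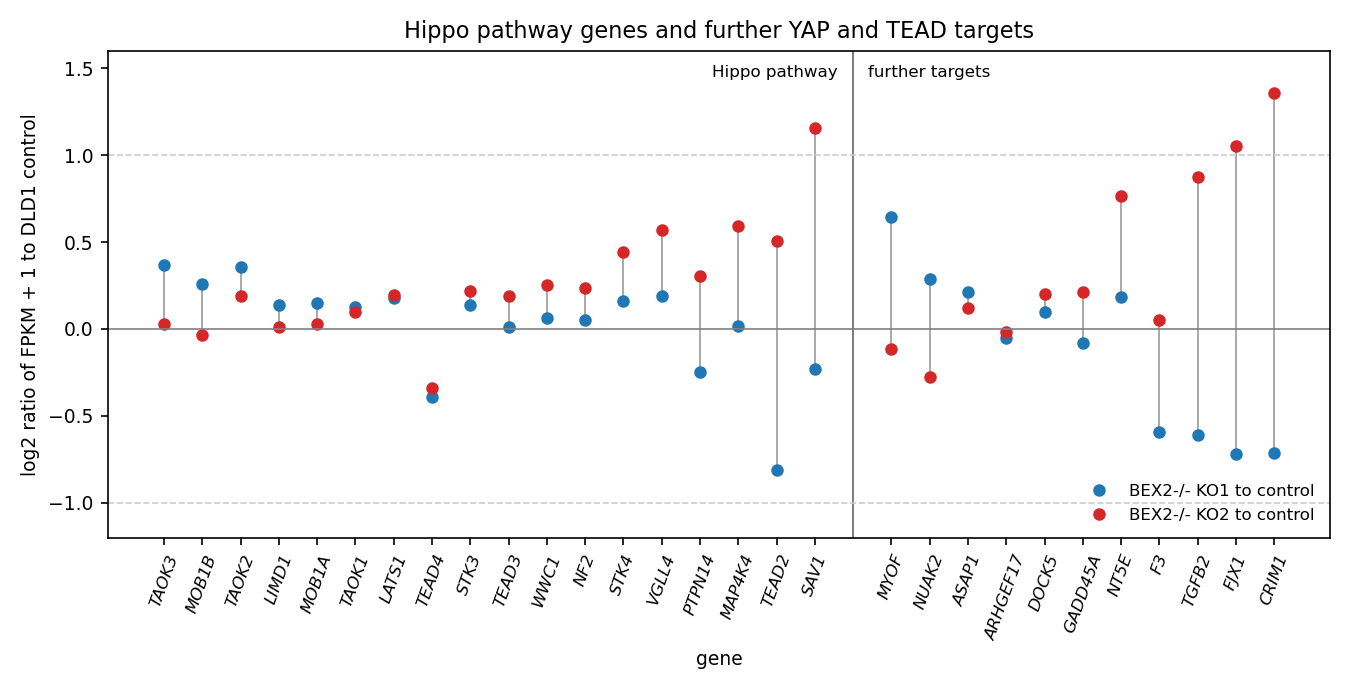
Log2 ratio of FPKM + 1 to DLD1 control for KO1 (blue) and KO2 (red), for 18 Hippo pathway genes and 11 further YAP and TEAD targets that passed the filter, with dashed lines at 2-fold and genes ordered by the difference between the knockout libraries. SAV1, FJX1 and CRIM1 in KO2 lie above the upper dashed line, no point lies below the lower one, and the blue point lies above the red for 6 Hippo pathway genes and 3 of the targets (MYOF, NUAK2 and ASAP1).

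CCN1 had the largest range of the 10 genes over the libraries (2.17 on the log2(FPKM + 1) scale), followed by AMOTL2 (1.55) and TEAD1 (1.22), and AXL had the smallest (0.12). This order belongs to that scale, which compresses low levels. As a ratio of FPKM, ANKRD1, with no read in KO1, spanned more than CCN1. The counting interval put ANKRD1 at 9.59-fold or more higher in the control than in KO1, where CCN1 was 5.64-fold higher in KO2 than in KO1. The ratio of KO2 to KO1 was larger for AXL (2.18) than for AJUBA (1.30). The 5 genes whose centred log2(FPKM + 1) values over the 3 libraries lay nearest to those of CCN1, by Euclidean distance, were MT2A, ICAM1, CX3CL1, DUSP6 and FOXQ1, at distances from 0.0448 to 0.188. Only 3 libraries define this likeness, and it too belongs to the log2(FPKM + 1) scale. ICAM1, a leukocyte adhesion molecule, was at 6.70, 2.47 and 13.3 FPKM in control, KO1 and KO2. The chemokine CX3CL1 was at 1.14, 0.0235 and 3.24 FPKM. Its value in KO1 was below that of 1 read per kb (0.0281 FPKM). In FPKM its ratio of KO2 to KO1 was far larger than that of CCN1. DUSP6, a phosphatase that acts on ERK, was at 11.5, 3.73 and 24.5 FPKM, and the forkhead factor FOXQ1 was at 41.6, 15.0 and 85.3 FPKM. MT2A, a metallothionein, was at 79.6, 34.0 and 159 FPKM, and as a member of a family of near-identical genes its reads may have been divided between copies.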

How the data were processed

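RNA-Seq data covered 1 library of DLD1 control cells and 2 of BEX2-/- DLD1 cells (KO1 and KO2). The authors prepared them with the Illumina TruSeq RNA kit, which does not mark strand, and deposited 1 table of FPKM values per gene. The submitters' processing notes name Trim Galore 0.3.7, STAR 2.5, Cufflinks 2.2.1, DESeq 1.22.1 and the build hg19, with no role or order. Without deposited counts, DESeq was not rerun. Symbols came from the gene name table (56558 identifiers matched), and exon lengths and positions from GENCODE release 29 on GRCh38, which holds 56996 identifiers. Its lengths gave whole reads for most genes although the notes name hg19, so positions are those of GRCh38 and not of the deposited table.

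The genes, lists and comparisons were chosen with earlier results of these data known. Reads were recovered as FPKM × exon length × depth, with a value counted as whole within 0.02. Between 98.7% and 98.8% of values under 50 reads came out whole for genes with 1 transcript, and between 88.1% and 89.0% for other genes, and 9 of the 10 genes described were whole at the annotated length. Ratios were taken on log2(FPKM + 1), for genes that averaged 1 FPKM or more (the control and the averaged knockout libraries weighted equally), with a 2-fold threshold. limma 3.58.1 (R 4.3.3, trended eBayes, Benjamini-Hochberg over 11675 genes) compared the knockout libraries with the control. On simulated libraries of that comparison, all 200 genes set 4-fold apart were called, as were 17 of the 11475 unchanged genes. Simulated noise was the smooth trend over level of the spread between the knockout libraries, or a fraction of it. No simulated gene kept a spread of its own, so this does not show the power of limma for the real genes. Ratios were given exact conditional 95% intervals (scipy 1.17.1, Python 3.11.15). PCR reads are not independent molecules, so intervals and limits cover counting error only. The labels do not say whether the knockout libraries came from separate clones or cultures, so p-values measure only the spread between these libraries. Named were BEX2, the 10 genes, the TEAD and VGLL genes, LATS1, every gene of the other lists at least 2-fold apart between libraries, and the 5 genes nearest to the one with the largest range; others were named after their values were seen. All value columns were used. Antisense genes overlap several of the 10, and those in the table were at or below 0.0729 FPKM. Alternatives were other pseudocounts, scalings, filters and thresholds, and the omission of each knockout library. Promoter windows came from RefSeq.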

Additional observations from a re-analysis of the deposited data

How the results depend on the processing

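The count of genes past the limma threshold was 0 under every alternative run (0.1 FPKM as the pseudocount, median-ratio or TPM scaling, no filter, a mean of at least 5 FPKM, no trend), with between 51 and 1578 genes at an unadjusted p-value under 0.05 and none of them among the 10 genes. The number of genes of the group at least 2-fold apart between the knockout libraries, 3 as reported, was 5 when 0.1 FPKM was the pseudocount, 5 on the TPM scale, 6 at a limit of 1.5-fold, 5 without a pseudocount, and 7 without a pseudocount or a filter. The number at least 2-fold from the control in KO1, 1 as reported, was 3 when 0.1 FPKM was the pseudocount, 2 after median-ratio scaling, 3 on the TPM scale, 3 at 1.5-fold, 3 without a pseudocount, and 5 without a pseudocount or a filter. In KO2 it was 0 as reported, 2 on the TPM scale, 4 at 1.5-fold, 2 without a pseudocount, and 3 without a pseudocount or a filter. The number past 2-fold the same way in each knockout library was 0, 1 without a pseudocount or a filter, and between 0 and 1 when 1 knockout library was left out, 1 being CCN1 when KO2 was left out. Ratios without a pseudocount were added after the data were seen. These counts are out of 7 genes of the group, 9 on the TPM scale, 10 without a filter and 5 at a mean of at least 5 FPKM. Shares over all genes, given above, were taken only for the reported scale and for FPKM without a pseudocount. For the other settings, a larger count cannot be set apart from a looser rule for every gene. Medians of the group kept their sign throughout, from -0.80 to -0.39 for KO1 to control, 0.34 to 0.72 for KO2 to control and 0.62 to 1.35 for KO2 to KO1. None of 180 recomputed ratios of single genes changed sign. Only median-ratio and TPM scaling could have changed one, because a pseudocount, a read floor or a filter leaves the higher library the same. The signs of the medians for KO1 to control and KO2 to KO1 were fixed in the same way, since all 10 genes lay on the same side. The TPM setting kept a pseudocount of 1 and a filter of 1 on its own scale. There 1 TPM is less than 1 FPKM, because FPKM summed to between 260686 and 273924 per library. That setting thus lowered the pseudocount and the filter along with equalising totals, and their parts were not told apart. The cause of the other shifts was not tested. Leaving out a knockout library leaves no residual degrees of freedom, so limma then gives values with no test. No paired analysis was possible because there was 1 control library and the labels pair no samples. Few reads limit the precision for ANKRD1, AXL and CCN2, with 0, 14 and 40 reads in KO1. KO1 also had the least depth (35593989 reads), and its part in this was not tested.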

Other observations

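Levels of genes relative to one another within a library do not depend on the scaling between libraries. CCN2, the best known partner of CCN1 as a YAP reporter, was at 0.223 of the level of CCN1 per unit length in DLD1 control cells (counting interval 0.192 to 0.259), 0.154 in KO1 (0.108 to 0.216) and 0.0700 in KO2 (0.0584 to 0.0832). ANKRD1 was at 0.0596 of CCN1 in the control (0.0438 to 0.0794) and 0.0115 in KO2 (0.00689 to 0.0180), and was listed at 0 in KO1. YAP1 exceeded WWTR1 by 22.7 times in the control, 27.0 in KO1 and 26.6 in KO2, with intervals that overlap (20.0 to 25.9, 22.8 to 32.1 and 23.7 to 29.8).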
